A study of Mus musculus with 3 samples.

Results

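The G2 and mitosis genes described here are 32 genes whose products carry a cell from the end of DNA replication through division, from the cyclins and the kinase Cdk1 to the motors and scaffolds of cytokinesis. They were taken from a fixed list of names, and each was read from the probe set that names it alone, or from the one of highest mean signal where there were several. Such a probe set was found for 31 of the 32 genes, among 18193 genes read in this way from the arrays, and Ccnb1 is not analysed here. RNA of mouse muscle stem cells (MuSC, satellite cells), sorted by FACS for CD34 and α7 integrin from the muscle of C57BL/6 mice, wild type and 8 weeks old, had been hybridized to 3 Affymetrix MOE_430_2 arrays. Fresh MuSC were taken directly after sorting, MuSC −OSM after 3 days of culture with 10% FBS, and MuSC +OSM after 3 days of the same culture with 100 ng/mL Oncostatin M (OSM), an IL-6 family cytokine. Each condition has 1 array, so nothing could be tested, differences lack any check by replicates, and every ratio below compares a pair of arrays. The study describes its OSM expression data as a mean over biological replicates, but 1 array per condition is analysed here, and how many animals or cultures stand behind each RNA is not stated.

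The comparison asks how far the division program differs between fresh and cultured cells, and between cultures with and without OSM. Satellite cells of resting muscle are quiescent, and they enter the cell cycle in culture. Genes of G2 and mitosis are transcribed late in the cycle: while a cell rests, the DREAM complex holds many of them silent at a promoter element called CHR, and in G2 the factors B-Myb and FoxM1 switch them on. Cyclin A and B with Cdk1 then start mitosis, the spindle checkpoint holds the chromosomes until all are attached, and the anaphase-promoting complex (APC/C) with its activator Cdc20 ends it.

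Promoters were examined first, since these genes are known for shared elements there and the rule that chose them did not use sequence. The RefSeq table used here (GRCm38.p6) gives the 250 bases before and 50 after the annotated start for 25 of the 32 genes, and Ccna2, Cdc25c, Foxm1, Pbk, Aurkb, Tpx2 and Kif20a were not matched in it. Each window was searched on both strands for CCAAT, the box bound by NF-Y, and for TTTGAA, the core of the CHR. CCAAT was found in 22 of 25 windows (88%), against 38.2% of 21263 protein-coding promoters of this length and 37.4% of all 32851. TTTGAA was found in 19 of 25 (76%), against 16% of protein-coding promoters and 17.9% of all. All of these 19 held CCAAT too, whereas 6.38% of protein-coding promoters and 6.95% of all held both. Of the other G2 and mitosis genes listed for comparison, 31 of 87 (35.6%) held both, and of DNA replication genes 3 of 32 (9.38%). More than 1 CCAAT box stood in 14 of the 25 windows. A TTTGAA lay within 50 bases before and 45 after the start, a span chosen after the positions were seen, in 18 of 25 windows (72%), against 3.77% of protein-coding promoters. The 10 stretches below run from 120 bases before to 30 after the start, 5′ to 3′ on the strand of the gene. They are shown to let the spacing of the elements be seen across the roles, with Mad2l1 as one of 3 genes, beside Birc5 and Nusap1, in which neither was found. Capitals mark CCAAT or TTTGAA, which read ATTGG or TTCAAA where they lie on the opposite strand. In Cdca8 the TTTGAA and an ATTGG overlap by 1 base.
Ccnb2, chr9:70421525-70421674, minus strand: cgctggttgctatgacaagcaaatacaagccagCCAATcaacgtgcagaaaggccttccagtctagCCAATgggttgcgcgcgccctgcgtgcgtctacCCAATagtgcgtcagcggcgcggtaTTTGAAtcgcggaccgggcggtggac
Cdk1, chr10:69352883-69353032, minus strand: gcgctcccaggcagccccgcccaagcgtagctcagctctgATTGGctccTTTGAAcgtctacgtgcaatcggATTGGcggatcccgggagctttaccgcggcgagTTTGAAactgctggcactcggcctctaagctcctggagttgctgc
Cdc20, chr4:118437314-118437463, minus strand: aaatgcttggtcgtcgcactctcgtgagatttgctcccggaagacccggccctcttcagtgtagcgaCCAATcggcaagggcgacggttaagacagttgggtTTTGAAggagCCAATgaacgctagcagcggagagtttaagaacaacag
Ube2c, chr2:164769809-164769958, plus strand: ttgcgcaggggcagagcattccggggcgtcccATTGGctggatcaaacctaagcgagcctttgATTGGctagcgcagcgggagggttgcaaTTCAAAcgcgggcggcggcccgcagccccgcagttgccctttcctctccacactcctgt
Cenpf, chr1:189688057-189688206, minus strand: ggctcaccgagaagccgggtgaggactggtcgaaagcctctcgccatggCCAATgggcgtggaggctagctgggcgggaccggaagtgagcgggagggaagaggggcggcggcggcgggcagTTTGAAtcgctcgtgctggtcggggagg
Cdca8, chr4:124936888-124937037, minus strand: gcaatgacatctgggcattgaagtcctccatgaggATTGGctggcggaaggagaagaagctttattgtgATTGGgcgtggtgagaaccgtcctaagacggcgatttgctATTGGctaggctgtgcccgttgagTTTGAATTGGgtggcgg
Kif11, chr19:37376262-37376411, plus strand: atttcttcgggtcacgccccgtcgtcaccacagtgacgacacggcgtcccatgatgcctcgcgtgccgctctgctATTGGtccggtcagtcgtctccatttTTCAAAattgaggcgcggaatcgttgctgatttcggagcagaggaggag
Prc1, chr7:80294331-80294480, plus strand: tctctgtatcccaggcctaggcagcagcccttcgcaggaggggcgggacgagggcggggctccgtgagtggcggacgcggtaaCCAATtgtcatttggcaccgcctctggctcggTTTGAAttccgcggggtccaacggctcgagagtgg
Top2a, chr11:99024160-99024309, minus strand: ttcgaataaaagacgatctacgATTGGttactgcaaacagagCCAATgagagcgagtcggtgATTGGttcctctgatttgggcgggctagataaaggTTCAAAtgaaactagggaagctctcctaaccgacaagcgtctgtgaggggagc
Mad2l1, chr6:66535101-66535250, plus strand: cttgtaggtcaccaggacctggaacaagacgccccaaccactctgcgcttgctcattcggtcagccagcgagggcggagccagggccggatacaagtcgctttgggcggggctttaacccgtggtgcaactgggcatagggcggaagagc
In these stretches the CCAAT boxes lie mostly upstream and the TTTGAA nearer the start, although in Cdk1, Cdc20 and Cdca8 a box follows one. A match is a description of these letters and no evidence of a bound factor, and a window without a match says nothing about the factor.

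**Figure D1:**
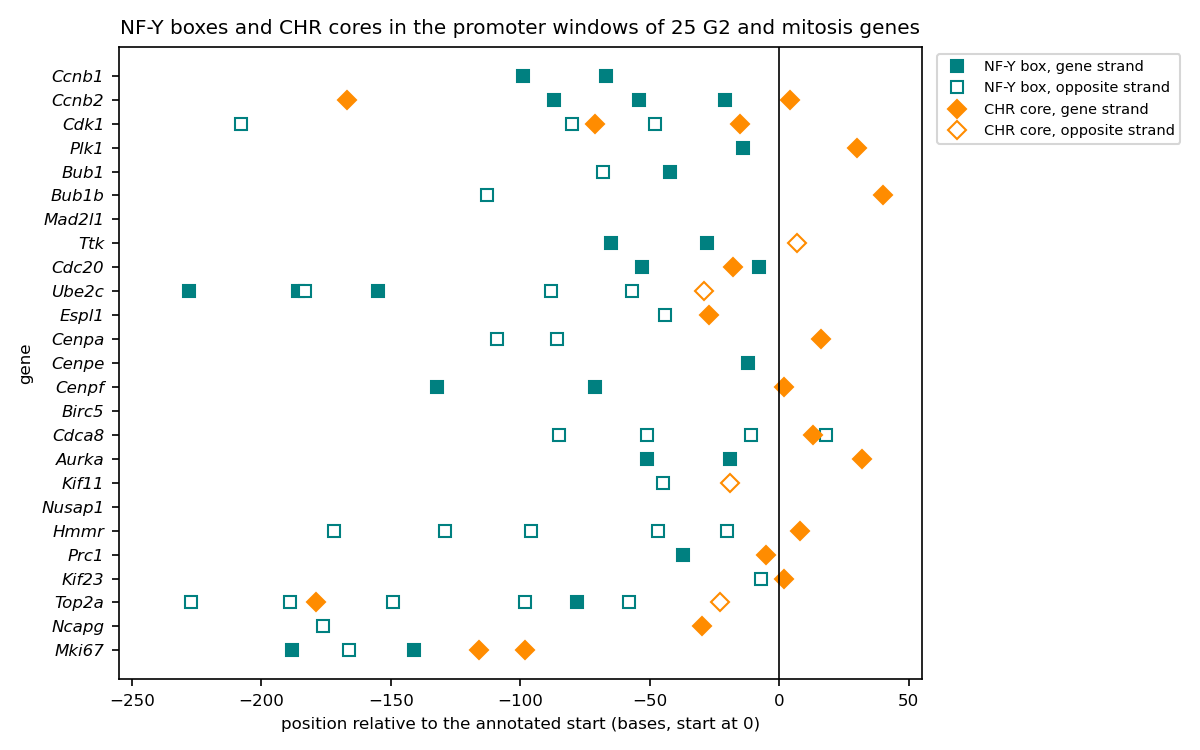
Positions of NF-Y boxes (CCAAT, squares) and CHR cores (TTTGAA, diamonds) in the promoter windows of 25 G2 and mitosis genes, in bases from the annotated start at 0, with filled symbols for the strand of the gene and open symbols for the opposite strand. CHR cores sit near the start in 18 of the 25 genes, and the boxes lie mostly before them.

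The deposited values are MAS5 signals, which condense the probes of each probe set to 1 intensity on a linear scale. Before a ratio was taken, signals under 40, which is the median over all arrays, were raised to that floor. Genes with both arrays at the floor were left out as not measured, and "at least" marks a fold whose lower signal had been raised. The median signal was between 32 and 53 on the 3 arrays. Signals of different genes come from different probes and, apart from the marker sums that follow, were not compared with each other. These sums are weighted toward the brightest probe sets, such as that of Dcn. Markers bore on what the samples were. All 8 MuSC markers were above the floor in fresh MuSC and 6 of 8 in both cultures, with Cd34 and Calcr under it, and their summed signal was 33613 when fresh, 4615 in MuSC −OSM and 6104 with OSM. Pax7, the defining factor of MuSC, had 4006, 282 and 431. Myf5, with 7016, 561 and 1855, had the widest gap between the cultures among these markers. Itga7, the gene of the α7 integrin used in the sort, went the other way, with 499, 1808 and 1238. The summed signal of 7 myoblast and myocyte markers was 8447 when fresh, 80260 in MuSC −OSM and 46657 with OSM, with 7 of 7 above the floor on each array. Of these, Myod1 alone was higher with OSM than without it, at 936, 3820 and 4148. Of 7 leukocyte markers 2 were above the floor in fresh MuSC and 0 in the cultures (summed signals 1314, 121 and 58 in the order fresh, −OSM, +OSM), of which Lyz2 made up most in fresh MuSC (1204, 13 and 13), while the pan-leukocyte marker Ptprc was at 1, 2 and 7. Of 6 endothelial markers 4, 1 and 0 were above it (1235, 130 and 108), with Tek at 791, 42 and 25, Cdh5 at 268, 6 and 22, and Pecam1 at 4, 4 and 2. Of 6 fibroblast markers 6, 1 and 4 were above it (14012, 170 and 646), with Dcn at 12179, 32 and 373, Col1a1 at 1037, 53 and 164, and Pdgfra at 140, 17 and 43. These lists were thus higher in fresh MuSC than in culture, and Dcn and Col1a1 were also higher with OSM than without it, although the study's sort used antibodies to CD45, CD11b, CD31 and Sca1 to remove other cells. No listed marker had a signal of 0, and the part of these cell types in the results below was not tested.

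G2 and mitosis genes had their lowest signal in fresh MuSC. The signal was lowest there for 27 of 31 genes, highest in MuSC −OSM for 22, highest in MuSC +OSM for 7 and highest in fresh MuSC for 2. In fresh MuSC 7 of the 31 genes were at or under the floor, against 2 in MuSC +OSM and 0 in MuSC −OSM. At least 2-fold below MuSC −OSM in fresh MuSC were 25 of 31 genes, against 15% of all 12755 measured genes, and 0 were at least 2-fold higher, against 20.4%. At 1.5-fold 26 were lower, against 24.3%. The median log2 ratio of the 31 genes was -1.60, and that of all genes 0.14. Their ratios ran from -2.80 to 0.23. The difference with OSM was smaller. In MuSC +OSM 1 of 31 genes, Cdca8, was at least 2-fold lower than in MuSC −OSM, against 4.39% of all 11271 measured genes, and 0 were at least 2-fold higher, against 6.07%. At 1.5-fold 8 genes were lower, namely Ccna2, Cdk1, Foxm1, Aurkb, Birc5, Cdca8, Aurka and Kif11, against 13.1% of all genes, and 0 were higher, against 14.6%. The signal was lower with OSM at all in 23 of 31 genes, against 50.2% of all genes. After each array was centred on its median signal, it was lower in 17 of 31, against 4564 of 11773 genes. The median log2 ratio was -0.26, and that of all genes -0.01. Against fresh MuSC, MuSC +OSM had 23 of 30 measured genes at least 2-fold higher, against 13.8% of all 12483 genes, and 0 at least 2-fold lower, against 17.2%, with a median log2 ratio of 1.38. At 1.5-fold 25 were higher, against 23.8%, and 0 lower, against 29.6%. The 3 comparisons share arrays in pairs and are not independent of each other. In RNA of whole samples, fewer dividing cells and less of these transcripts in each cell cannot be told apart.

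The direction of these medians was checked under other scalings. Centring each array on its median signal shifted the median of all genes to -0.37 in fresh MuSC over MuSC −OSM and to 0.15 in MuSC +OSM over MuSC −OSM. Relative to the median of all genes, the 31 genes lay at -1.73 as deposited, -1.71 after centring and -1.82 after quantile normalization in the first comparison, and at -0.25, -0.22 and -0.25 in the second. After centring, 4 of 31 genes were 1.5-fold lower with OSM, against 9.38% of all genes. Cdca8, at a log2 ratio of -0.91, was then no longer 2-fold lower, so these counts depended on the scaling. Against fresh MuSC, the genes of MuSC +OSM lay 1.52 above the median of all genes as deposited, 1.52 after centring and 1.53 after quantile normalization.

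**Figure D2:**
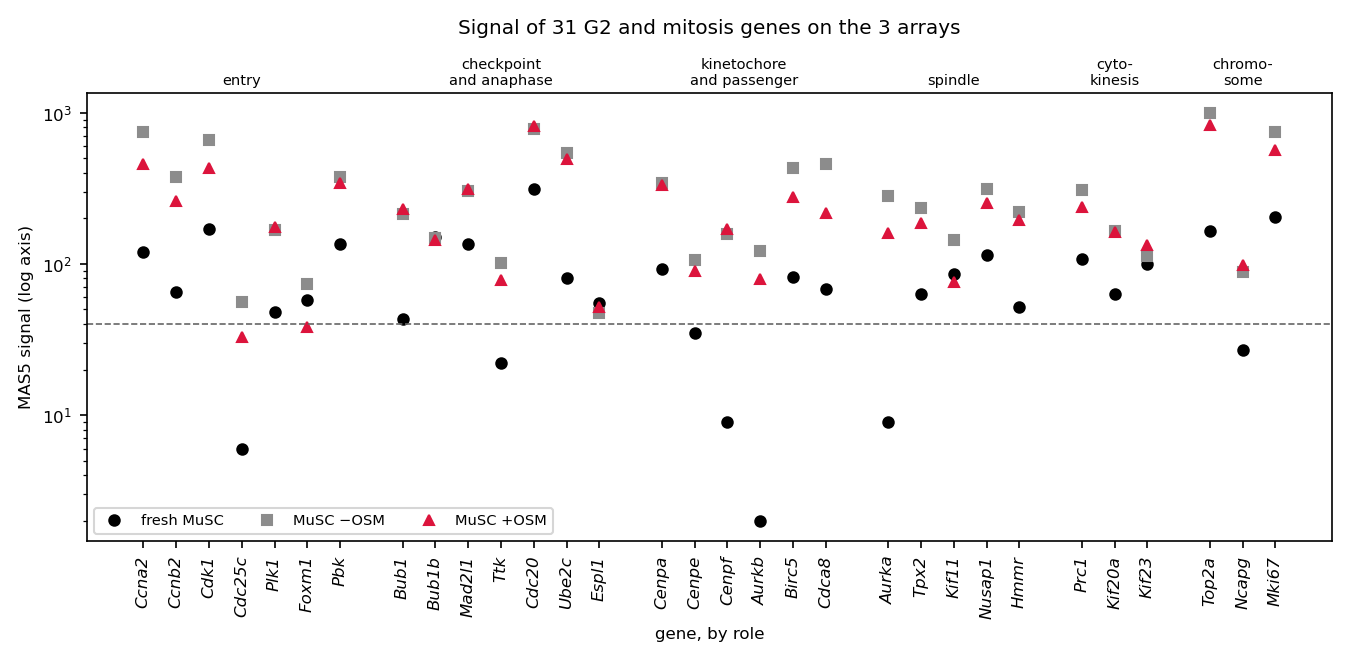
MAS5 signal on a log axis of 31 G2 and mitosis genes, grouped by role, from 1 array per condition (black circles, fresh MuSC; gray squares, MuSC −OSM; red triangles, MuSC +OSM), where the floor of 40 is dashed. The black circles are lowest in 27 genes, and the red triangles lie near the gray squares, with the widest gap between them at Cdca8 (456 and 216).

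Members that drive entry into mitosis were lower in fresh MuSC, and several were lower with OSM too, although by less than 2-fold. Of 7 measured genes of this role, 5 were at least 2-fold below MuSC −OSM in fresh MuSC. With OSM 0 of 7 were 2-fold lower, 3 were 1.5-fold lower and the median log2 ratio was -0.53. After centring 2 were 1.5-fold lower, namely Foxm1 and Cdc25c, both near the floor, of which Cdc25c had not passed before. Ccna2 (log2 ratio -0.53) and Cdk1 (-0.45) then no longer passed. Ccna2, which encodes cyclin A2 of S phase and early mitosis, had a signal of 119 when fresh, 746 in MuSC −OSM and 459 with OSM, that is 6.27-fold lower in fresh MuSC and 1.63-fold lower with OSM. Its other probe set gave 122, 452 and 258. Both probe sets thus put MuSC +OSM between the other arrays. Ccnb2, one of the B cyclins that activate Cdk1, had 65, 375 and 259, which is 5.77-fold and 1.45-fold below MuSC −OSM. Cdk1, the kinase that starts mitosis, had 171, 661 and 430, or 3.87-fold and 1.54-fold lower. The cyclins and their kinase had the same order on the 3 arrays. Plk1, a kinase of mitotic entry and spindle assembly, had 48, 167 and 175, so that it was 3.48-fold lower in fresh MuSC and had a ratio of 1.05 with OSM. Pbk, a mitotic kinase gene, had 135, 374 and 340, with 2.77-fold lower signal in fresh MuSC and a ratio of 1.10 with OSM. For these genes the cultures lay close together. Foxm1, the transcription factor gene of the program, was 1.28-fold lower in fresh MuSC, with signals of 58, 74 and 38, and at least 1.85-fold lower with OSM, and its other 3 probe sets were under the floor on all arrays. Cdc25c, the phosphatase that activates Cdk1, had 6, 56 and 33, so that fresh MuSC and MuSC +OSM were each at least 1.40-fold below MuSC −OSM. Foxm1 and Cdc25c were near the floor on all arrays, which bounds their ratios.

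Members from the spindle checkpoint and anaphase were mostly lower in fresh MuSC but, at the probe set used, nearly alike in the cultures. Other genes of this role, given below, had a lower median with OSM. Of 7 genes 5 were at least 2-fold below MuSC −OSM in fresh MuSC, whereas 0 were even 1.5-fold different with OSM at the probe set used. The median log2 ratio with OSM was 0.04 as deposited, 0.21 after centring and -0.02 after quantile normalization. Ube2c, the ubiquitin-conjugating enzyme that works with the APC/C, had a signal of 80 when fresh, 542 in MuSC −OSM and 490 with OSM, a 6.78-fold and a 1.11-fold lower level than in MuSC −OSM. Bub1, a checkpoint kinase, had 43, 212 and 230, with fresh MuSC 4.93-fold lower and MuSC +OSM 1.09-fold higher, whereas a second probe set gave 19, 55 and 43, which is 1.28-fold lower with OSM. Mad2l1, which encodes the APC/C inhibitor Mad2, had 136, 305 and 314. In these genes both cultures stood well above fresh MuSC. Cdc20 had 313, 781 and 821 at its probe set of highest signal, whose name ends in _x_at and which may bind other transcripts. A second probe set gave 171, 487 and 305, a log2 ratio of -0.68 with OSM (1.60-fold lower) in place of 0.07. The probe sets of Cdc20 thus had the same direction for fresh MuSC and differed for OSM. Ttk, the checkpoint kinase also called Mps1, had 22, 102 and 78 and was at least 2.55-fold lower in fresh MuSC. Bub1b, which encodes the checkpoint protein BubR1, had 150, 149 and 144, and Espl1, which encodes separase, the protease that releases sister chromatids, had 55, 47 and 52. Bub1b and Espl1 were the genes of this role that lay within 1.2-fold on all 3 arrays.

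Genes of the kinetochore and of the chromosomal passenger complex, which corrects chromosome attachment, were all at least 2-fold below MuSC −OSM in fresh MuSC (6 of 6). With OSM the 3 members from the passenger complex were 1.5-fold lower or more, at 1.53-fold for the kinase gene Aurkb, 1.54-fold for Birc5, which encodes survivin, and 2.11-fold for Cdca8, which encodes borealin, although after centring only Cdca8 passed 1.5-fold, with log2 ratios of -0.45, -0.45 and -0.91 in this order. Cdca8 had a signal of 68 when fresh, 456 in MuSC −OSM and 216 with OSM. Its other 2 probe sets gave 10, 216 and 140, and 33, 169 and 91, so each of them was lower with OSM but by less than 2-fold, with log2 ratios of -0.63 and -0.89. Birc5 had 82, 427 and 278, and Aurkb, also read from an _x_at probe set, 2, 121 and 79 with a second probe set at 22, 95 and 76. The fourth subunit of the complex, its scaffold Incenp, is no member. It had 208, 262 and 497 at the probe set of highest mean signal, 1.90-fold higher with OSM. The name of that probe set ends in _x_at, and it may bind other transcripts. A second probe set gave 78, 125 and 120, and the others were under the floor on all arrays. No direction for the complex as a whole can thus be given. The 3 members from the kinetochore were within 1.18-fold of MuSC −OSM with OSM. Cenpa, the centromeric histone H3 variant, had 92, 344 and 330, Cenpe, a kinetochore motor, 35, 106 and 90, and Cenpf, a kinetochore and nuclear matrix protein, 9, 157 and 169. Kinetochore genes outside the members were not all as close. Of 22 measured genes of the kinetochore and centromere list, 3 were at least 1.5-fold lower with OSM and 1, Incenp, was higher. The lower genes made up 13.6% of this list, a share near the 13.1% found over all genes. Over all genes 14.6% passed the same threshold upward, so the list as a whole did not stand out. The lower genes were Spc24 (2.78-fold), Ska1 (74 to 31, at least 1.85-fold) and Cenpm (71 to 30, at least 1.78-fold), of which Ska1 and Cenpm are named here after their values were seen. Whether passenger and kinetochore genes differed was not tested.

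Spindle assembly genes had lower signals with OSM in 5 of 5, and in 4 of 5 after centring. As deposited, 2 of them were 1.5-fold lower and 0 were 2-fold lower, and after centring 1 was 1.5-fold lower. In fresh MuSC 4 of 5 were at least 2-fold below MuSC −OSM. Aurka, the kinase of spindle poles, had a signal of 9 when fresh, 279 in MuSC −OSM and 159 with OSM, at least 6.98-fold lower in fresh MuSC and 1.76-fold lower with OSM. Tpx2, the activator of Aurora A on the spindle, had 63, 234 and 186. A second probe set of Tpx2 gave 45, 115 and 92, but another, whose name ends in _x_at and which may bind other transcripts, gave 80, 27 and 78. Hmmr, a spindle pole protein, had 52, 221 and 195. Other measured probe sets of Hmmr gave 57, 142 and 124, then 91, 97 and 90 (an _x_at probe set), then 35, 50 and 54. Nusap1, which bundles spindle microtubules, had 115, 314 and 254. For Tpx2, Hmmr and Nusap1 the cultures differed by less than 1.3-fold at the probe set used. Kif11, the motor that separates the spindle poles, had 86, 144 and 76 at the probe set of highest mean signal, a 1.90-fold lower level with OSM. Its other 2 probe sets gave 40, 123 and 136, and 51, 63 and 81, higher with OSM, so the direction for Kif11 rests on the choice of probe set, and after centring, which made another probe set the highest, its log2 ratio was 0.32.

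Of the cytokinesis genes, Prc1 and Kif20a were at least 2-fold lower in fresh MuSC and Kif23 was not. Prc1, which bundles the microtubules of the central spindle, had 107 when fresh, 309 in MuSC −OSM and 236 with OSM, and its second probe set 113, 207 and 213. Kif20a, a motor of the central spindle, had 63, 166 and 163, and Kif23, a motor of the centralspindlin complex, had 99, 113 and 133. With OSM all 3 lay within 1.31-fold of MuSC −OSM. Among genes of chromosome structure and proliferation, Top2a, the topoisomerase that untangles sister chromatids, had 166, 991 and 828 and a 5.97-fold lower level in fresh MuSC. A second probe set of Top2a gave 54, 70 and 58, which is 1.30-fold lower in fresh MuSC. Mki67, the Ki-67 gene commonly used to mark cycling cells, had 203, 744 and 567, with fresh MuSC 3.67-fold and MuSC +OSM 1.31-fold below MuSC −OSM. Ncapg, a condensin subunit, had 27, 88 and 98, and its second probe set 5, 53 and 42. At the probe set used, all 3 genes of this group were at least 2-fold lower in fresh MuSC, and 0 were 1.5-fold different with OSM.

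**Figure D3:**
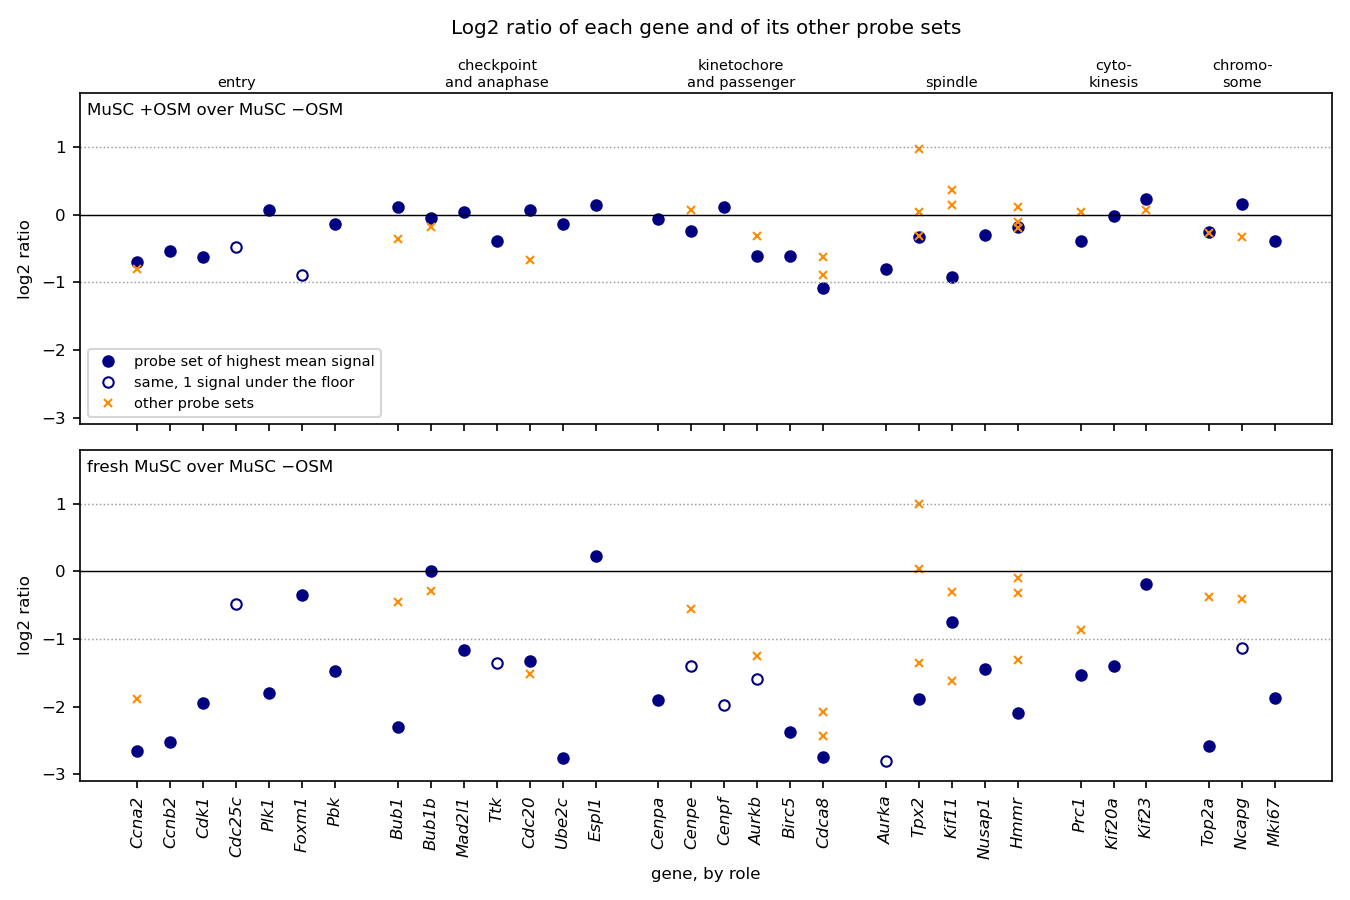
Log2 ratio of MuSC +OSM over MuSC −OSM (top) and of fresh MuSC over MuSC −OSM (bottom) for 31 G2 and mitosis genes, with blue circles for the probe set of highest mean signal, open where 1 of the signals was under the floor of 40, and orange crosses for other measured probe sets; dotted lines mark 2-fold. In the top panel 1 circle, Cdca8 at -1.08, lies below the dotted line, against 25 in the bottom panel.

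The members hold other probe sets that the rule did not use, which repeat the measurement on the same RNA and array. There were 36 of them, for 21 genes, and 17 were under the floor on both arrays when fresh MuSC and MuSC −OSM were compared. Of the 19 measured, 17 were lower in fresh MuSC, 8 of them at least 2-fold, and 1, of Tpx2, was 2-fold higher. Between the cultures 20 were measured, of which 12 were lower with OSM and 0 were 2-fold different in either direction, and 10 of the 20 were on the same side as the probe set used for the gene. With OSM the direction of a gene was thus matched by its other probe sets in 10 of 20 cases, whereas against fresh MuSC it was matched in 16 of 19.

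Further genes of G2 and mitosis, from a list of 106 names written from knowledge of the pathway, were less uniform than the 31. Of 100 measured, 36 were at least 2-fold below MuSC −OSM in fresh MuSC, against 15% of all genes, and 5 were higher, with a median log2 ratio of -0.67. In MuSC +OSM over MuSC −OSM, 3 of 100 lay 2-fold or more below, against 4.39% of all genes, 0 lay as far above, against 6.07%, and the median was -0.16, which turned to 0.01 after centring. This count is near the share of all genes, and the genes, Spc24, Mad1l1 and H2az1, are given as values. Spc24, a subunit of the Ndc80 complex of the kinetochore, had a signal of 49 when fresh, 565 in MuSC −OSM and 203 with OSM, which is 11.5-fold lower in fresh MuSC and 2.78-fold lower with OSM. H2az1, a histone H2A variant gene, had 2880, 3986 and 1874, and Mad1l1, the partner of Mad2 in the checkpoint, had 7, 92 and 23, so that fresh MuSC and MuSC +OSM were each at least 2.30-fold below MuSC −OSM. The lowest ratios of fresh MuSC next to that of Spc24 were those of Cep55 (62, 364 and 340), an abscission protein, Kntc1 (39, 232 and 180), which recruits dynein to kinetochores, Kif2c (22, 224 and 169), a microtubule depolymerase, and Nek2 (15, 209 and 279), a centrosome kinase. At the other end stood Wee1, the kinase that holds Cdk1 inactive, with 525, 104 and 145, and Smc1a, a cohesin subunit, with 2374, 815 and 1187. Cenpl had 132, 54 and 65, Cenpq 311, 143 and 186, and Bora, an activator of Plk1 through Aurora A, 84, 42 and 68. Wee1 was thus 5.05-fold higher in fresh MuSC. By role, the share at least 2-fold lower in fresh MuSC was 10 of 19 for spindle and microtubule genes, 4 of 8 for cytokinesis, 6 of 18 for the checkpoint and anaphase, 7 of 21 for the kinetochore and centromere, 5 of 18 for chromosome structure and 4 of 16 for entry. With OSM the median log2 ratios of these roles were -0.379, -0.122, -0.295, -0.005, -0.011 and 0.064 in the same order. After centring they were -0.235, 0.048, -0.125, 0.165, 0.158 and 0.234, against 0.154 over all genes, so the sign of several depended on the scaling. Lower with OSM were 13 of 18 checkpoint and anaphase genes and 7 of 15 entry genes, against 50.2% of all genes. After centring it was 10 of 18 and 6 of 15, against 4564 of 11773 genes. The members of these roles had medians of 0.04 and -0.53, so the order of the roles depended on which genes were listed. This difference was not tested.

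Earlier steps of the cell cycle were compared in the same way. Of 37 measured DNA replication genes, 7 were at least 2-fold below MuSC −OSM in fresh MuSC (18.9%), near the 15% of all genes, and 1 was higher, with a median log2 ratio of -0.41. After centring, 19 were lower (51.4%), against 28.3% of all genes, and 0 were higher. With OSM 2 were lower, 0 were higher and the median was -0.18 (-0.02 after centring). Of 16 G1 cyclins, their kinases and E2F factors, 5 were lower and 3 higher in fresh MuSC (median -0.58), and 2 were lower and 0 higher with OSM (median -0.15, or -0.05 after centring). Of 10 CDK inhibitors and pocket proteins, 3 were lower and 2 higher in fresh MuSC (median -0.74). With OSM 0 of them were 2-fold different (median -0.27, or -0.10 after centring). Over all genes, 15% were lower and 20.4% higher in fresh MuSC, and 4.39% lower and 6.07% higher with OSM. After centring, 9 of the 16 and 6 of the 10 genes were lower in fresh MuSC, against 28.3% of all genes, and 3 and 0 were higher. The difference of these lists from the G2 and mitosis genes was not tested, since each condition has 1 array.

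**Figure D4:**
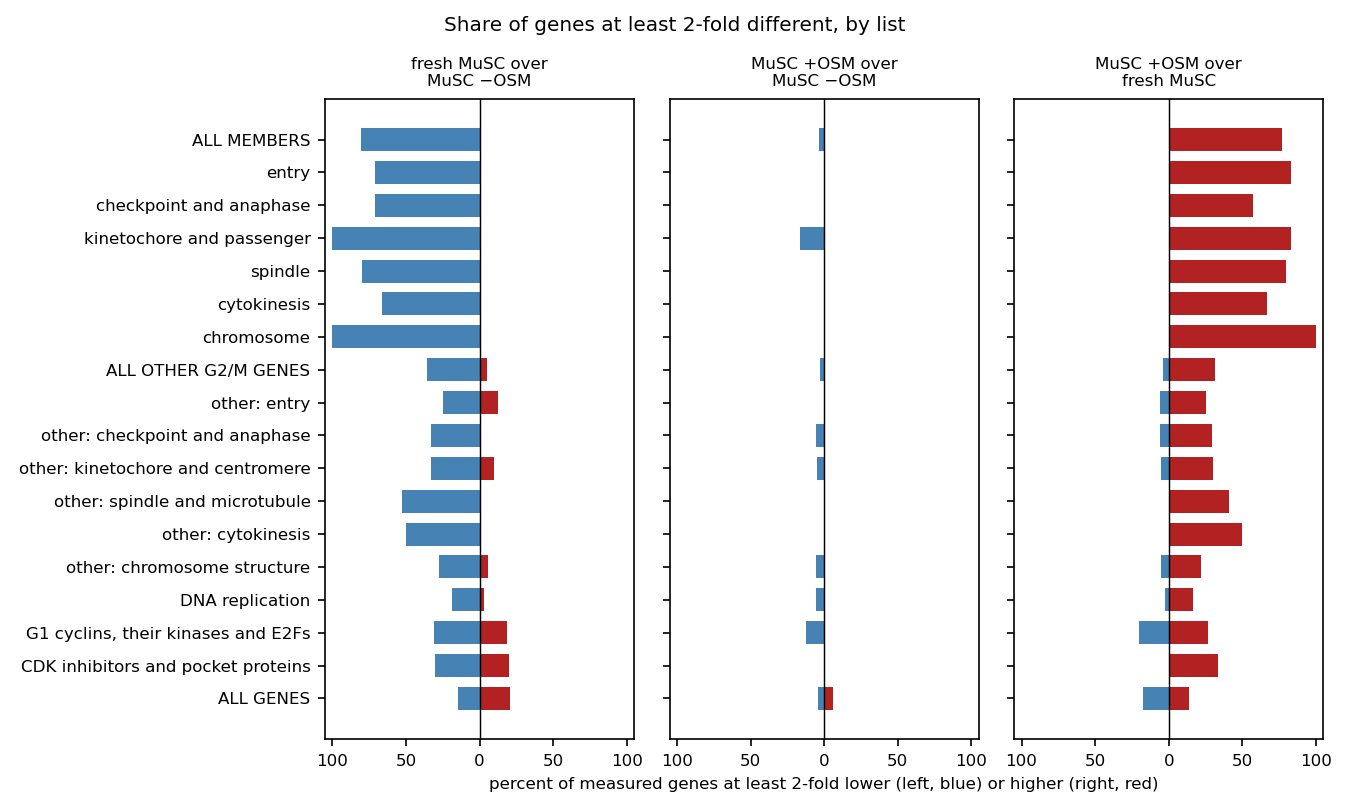
Percent of the measured genes of each list that were at least 2-fold lower (blue, to the left) or higher (red, to the right), for the 3 comparisons of arrays, with the 31 members and their roles at the top, other G2 and mitosis genes and earlier cell cycle lists below, and all genes at the bottom. The blue bars of the left panel are long for the members (25 of 31) and short for DNA replication (7 of 37), and the bars of the middle panel are short throughout.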

How the data were processed

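RNA was amplified with 3′ IVT Express reagents from 20 ng of total RNA and hybridized to MOE_430_2 arrays. The authors processed the scans with MAS5 (no version in the sources used here) and deposited signal intensity on a linear scale. After 64 control probe sets were left out, the 3 arrays had means, less 2% at either end, of 198.4 to 198.7, and 34945 probe sets named 1 gene and 932 named several, which were not used. Of those naming 1 gene, 34754 had an identifier in the RefSeq gene table (GRCm38.p6), and 0 symbols differed from it. Log2 ratios after a floor of 40, counts at 2-fold and medians were obtained with Python 3.11.15 (pandas 2.3.3, numpy 2.4.6, scipy 1.17.1), and the steps were tested on simulated data. With 1 array per group no test was run, and precision is limited by the number of arrays. Alternatives were the scaling, another floor, other probe sets and another fold threshold. The members and lists were chosen with earlier results of these data known. All members were named, and of the other G2 and mitosis genes those 2-fold different with OSM and the 5 highest and 5 lowest in fresh MuSC over MuSC −OSM.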

Additional observations from a re-analysis of the deposited data

How the results depend on the processing

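In fresh MuSC over MuSC −OSM and MuSC +OSM over fresh MuSC, the members' medians kept their sign under every alternative. Their median in MuSC +OSM over MuSC −OSM also stayed negative, but its size did not exceed 0.32 (log2). It was -0.26 as deposited, -0.15 with the median over all probe sets of a gene and -0.07 after centring, so its sign rests on small values. With 1 array per condition, no alternative stands in for replicates, and signals near the floor limit the ratios. No paired analysis was possible because each group has 1 array. After centring on the median signal, the members' medians were -2.09 for fresh over −OSM and 2.10 for +OSM over fresh, 0 members were 2-fold lower for +OSM over −OSM, and 0 were lower at all for +OSM over fresh. The other G2 and mitosis genes then had medians of -1.10 (fresh over −OSM), 1.14 (+OSM over fresh) and 0.012 (+OSM over −OSM, reversed), with 1 gene 2-fold higher for fresh over −OSM, 1 higher for +OSM over −OSM, and 52 higher and 1 lower for +OSM over fresh. After quantile normalization 0 members were lower for +OSM over fresh, and of the other genes 3 were 2-fold higher for fresh over −OSM (median -0.99) and 5 lower for +OSM over −OSM. With the floor at the 25th percentile of 11, 6 other genes were 2-fold lower for +OSM over −OSM. With the floor at the 75th percentile of 183, 18 members were measured for fresh over −OSM, of which 18 were lower and 10 2-fold lower (median -1.03), 15 were lower for +OSM over −OSM, and for +OSM over fresh 6 were 2-fold higher and 0 lower (median 0.78). The other genes then had 2 higher and 7 lower for fresh over −OSM (median -0.31) and 6 higher for +OSM over fresh (median 0.32), and fewer genes were measured at this floor. With the median over all probe sets of a gene, 2 members were lower for +OSM over fresh, 0 were 2-fold lower for +OSM over −OSM, and 2 other genes were 2-fold lower for +OSM over fresh. Without probe sets ending in _s_at or _x_at, which was added after the data were seen, 0 members were 2-fold lower for +OSM over −OSM. At 1.5-fold 8 members were lower for +OSM over −OSM, and of the other genes 15 were lower and 2 higher there and 9 lower for +OSM over fresh. At 3-fold 16 members were lower for fresh over −OSM, 12 higher for +OSM over fresh and 0 lower for +OSM over −OSM, and of the other genes 1 was higher and 15 lower for fresh over −OSM, 11 higher and 1 lower for +OSM over fresh and 0 lower for +OSM over −OSM. Beyond what the scaling, the floor, the probe set and the threshold define, the cause of these differences was not tested.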

Other observations

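The promoter elements of the G2 and mitosis genes were set beside the ratios of all other genes, leaving out the members and the other listed G2 and mitosis genes. This was chosen after the motif counts were seen. In fresh MuSC over MuSC −OSM, 79 of 505 measured protein-coding genes with both CCAAT and TTTGAA in 1 promoter window were at least 2-fold lower (15.6%), against 748 of 4946 (15.1%) of genes with neither. With CCAAT and a TTTGAA near the start, as in 18 of the 25 members, it was 19 of 128 (14.8%). With OSM the shares were 20 of 440 (4.55%) with both and 197 of 4456 (4.42%) with neither. Among the members themselves, 15 of 19 genes with TTTGAA and 5 of 5 without it were at least 2-fold lower in fresh MuSC. These differences were not tested.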
